A study of Homo sapiens with 4 samples.

Results

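The class I and class II histone deacetylases are 10 genes here, HDAC1 to HDAC9 and HDAC11, taken by name from the 60675 genes of the deposited counts. All 10 were matched to an Ensembl identifier and all 10 passed the filter on low counts, which kept 17600 genes. HDAC11 is included although it is usually placed in a class of its own, class IV. HDAC10, also a class II enzyme, is not among the 10. The RNA came from LNCaP, a prostate cancer line that responds to androgen, and each group held 2 biological replicates. The cells of one group received 1 nM R1881, a synthetic androgen, with the DMSO vehicle, and those of the other 1 nM R1881 with 50 µM CPI-455, an inhibitor of the KDM5 histone demethylases. Both groups were treated for 72 h in hormone-depleted serum, so every library comes from androgen-treated cells and a group without androgen was not analysed here. The labels and the study's methods give different DMSO concentrations, and neither states whether same-numbered cultures were grown together.

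Histone deacetylases remove acetyl groups from lysines of histones and other proteins, and at promoters this removal is generally linked to lower transcription. HDAC1 and HDAC2 are close paralogs that work as the catalytic pair of the SIN3, NuRD, CoREST and MiDAC complexes, and HDAC3 is the enzyme of the NCoR corepressor complex. HDAC8 is a class I enzyme that acts outside these complexes and deacetylates cohesin. The class IIa members HDAC4, HDAC5, HDAC7 and HDAC9 have little deacetylase activity of their own, bind MEF2 transcription factors and move between nucleus and cytoplasm. HDAC6 is a mostly cytoplasmic class IIb enzyme that deacetylates tubulin, and HDAC11 is best known for removing fatty acyl groups. In prostate cells the androgen receptor recruits both acetyltransferases and deacetylase corepressors.

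The 4 libraries held between 5401588 and 20690819 counted fragments, and the CPI-455 libraries were the shallower ones, at 9522920 and 5401588. After scaling, 3 fragments corresponded to 0.137 to 0.142 CPM (fragments scaled by library size) under vehicle and to 0.337 to 0.595 CPM under CPI-455. All 8 luminal prostate markers examined were expressed, with a summed level of 847 to 918 CPM under vehicle and 375 to 427 CPM under CPI-455. KLK3 had the largest part of the vehicle sum, at 404 and 357 CPM, and had 107 and 136 CPM under CPI-455. Of the 8, only KLK2 was higher under CPI-455, with 84.2 and 64.4 CPM under vehicle and 108 and 111 under CPI-455. The markers of basal, stromal, immune and neuroendocrine cells summed to between 0.137 and 10.2 CPM per list and library, and KRT5 and LUM were at 0 in every library. The part of these marker differences in the results below was not tested. The sequencing was of bulk RNA, in which fewer expressing cells and less RNA per cell cannot be told apart, and each fold change is measured against the rest of the same library.

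Between the 2 groups HDAC6 rose and HDAC9 and HDAC11 fell, while the other 7 members changed by less than 2-fold. A gene was called when its FDR (Benjamini-Hochberg adjusted over all 17600 genes, edgeR's quasi-likelihood test) was below 0.05 and its level changed at least 2-fold. By this definition 3 of the 10 members were called, against 42.4% of all genes tested. Of these, 1 of the 10 members was called higher, against 21.0% of all genes tested, and 2 were called lower, against 21.3%. Without a minimum size, 9 of the 10 members had an FDR below 0.05, against 62.6% of all genes, with 5 of them higher (background 29.8%) and 4 lower (background 32.8%). In none of the 10 did the normalized CPM of the groups overlap, which also held for 81.9% of all genes tested. The median log2 fold change (CPI-455 over vehicle) was 0.26 over the members and -0.04 over all genes tested. The shares called were not above the background, and the members are described below one by one.

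To show the DNA upstream of the members that were called, the 250 bases before the RefSeq start are given for HDAC6, HDAC9 and HDAC11, and for HDAC1, the member with the highest level. They are read 5′ to 3′ on the strand of the gene from GRCh38.p14, at the entry nearest to the MANE Select start (the transcript agreed by RefSeq and Ensembl). Capitals mark matches on either strand, overlaps included, to any of the motifs searched. These were the GC box, written GGGCGG, and the box named for its letters CCAAT. The TATA box was searched as TATAAA and the E-box as CACGTG. One arm of the androgen response element was searched as AGAACA.
HDAC6 (chrX:48801817-48802066, + strand): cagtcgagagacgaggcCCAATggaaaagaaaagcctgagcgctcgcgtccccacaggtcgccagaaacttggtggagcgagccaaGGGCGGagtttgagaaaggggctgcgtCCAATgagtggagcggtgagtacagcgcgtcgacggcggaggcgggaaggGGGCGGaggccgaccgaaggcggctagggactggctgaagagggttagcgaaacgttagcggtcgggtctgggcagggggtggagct
HDAC9 (chr7:18495499-18495748, + strand): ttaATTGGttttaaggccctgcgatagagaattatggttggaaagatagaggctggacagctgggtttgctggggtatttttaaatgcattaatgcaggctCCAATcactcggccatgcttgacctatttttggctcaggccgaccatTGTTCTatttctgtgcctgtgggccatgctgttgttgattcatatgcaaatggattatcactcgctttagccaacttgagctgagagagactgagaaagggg
HDAC11 (chr3:13480056-13480305, + strand): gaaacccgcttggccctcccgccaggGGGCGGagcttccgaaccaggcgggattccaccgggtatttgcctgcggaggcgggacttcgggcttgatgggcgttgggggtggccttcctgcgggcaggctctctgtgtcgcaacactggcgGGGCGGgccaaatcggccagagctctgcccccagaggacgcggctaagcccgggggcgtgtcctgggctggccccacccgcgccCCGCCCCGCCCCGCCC
HDAC1 (chr1:32291833-32292082, + strand): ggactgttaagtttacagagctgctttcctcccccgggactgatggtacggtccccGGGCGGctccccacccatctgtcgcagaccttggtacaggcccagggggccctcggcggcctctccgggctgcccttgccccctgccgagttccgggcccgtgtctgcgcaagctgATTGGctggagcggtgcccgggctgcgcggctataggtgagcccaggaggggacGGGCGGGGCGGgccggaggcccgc
The table held a window for 9 of the members. HDAC11 had 5 matches to the GC box, HDAC1 had 3 and HDAC6 had 2, and 42.6% of all 35116 windows of this length held at least 1. HDAC9 had none, as did HDAC2, HDAC7 and HDAC8. The one of the 9 members with AGAACA was HDAC9, and 12.4% of all windows held it. HDAC9 had 5 RefSeq entries, and its counted exons begin upstream of the window shown, at 18086949. HDAC6 and HDAC9 each had 2 matches to the CCAAT box, found in 32.0% of windows, and HDAC1 had 1. The GC content was 64.4% for HDAC6, 73.6% for HDAC11 and 71.6% for HDAC1, against a median of 58.0% over all windows, and 45.2% for HDAC9. These are matches of letters only, and no binding or chromatin mark was measured here.

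**Figure D1:**
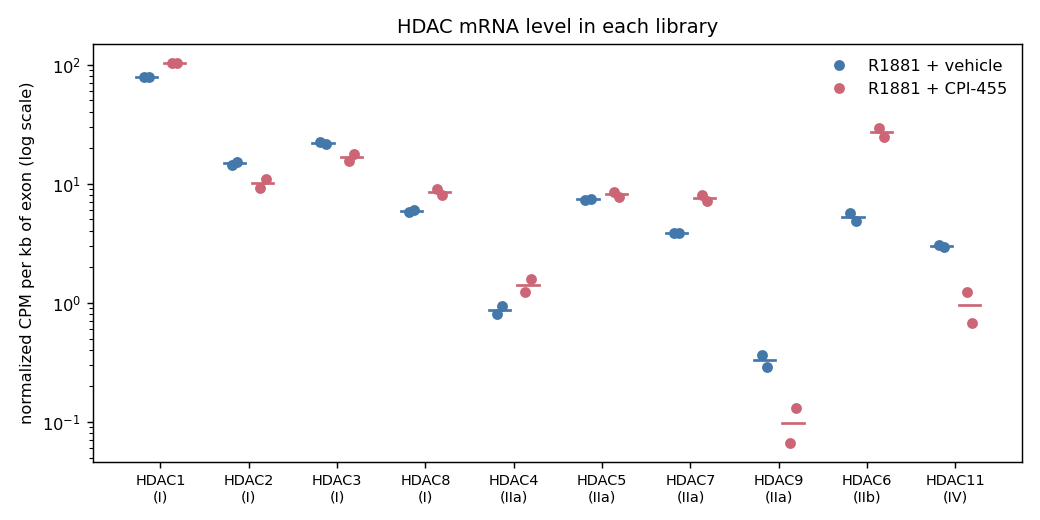
Level of each member in each library, as normalized CPM per kb of annotated exon on a log axis. Points are the 2 replicates of each group and bars their mean. HDAC6 moves from 5.25 to 27.1 while HDAC9 and HDAC11 lie lower in both CPI-455 libraries.

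To compare levels between genes, normalized CPM was divided by the length of the annotated exons, which gives CPM per kb. With vehicle HDAC1 had the highest level of the family, at 78.8 ± 0.531 CPM per kb (SD, n = 2), above 98.0% of all genes tested. HDAC3 followed with 22.0 ± 0.698 and HDAC2 with 14.8 ± 0.520. The next members were HDAC5 at 7.37, HDAC8 at 5.95, HDAC6 at 5.25, HDAC7 at 3.83 and HDAC11 at 2.99 CPM per kb. HDAC4 and HDAC9 were the lowest, at 0.873 and 0.328 CPM per kb. No neighbours in this vehicle order had overlapping replicates, but replicate spread does not cover the choice of exon length. Between 30.2% (HDAC5) and 67.4% (HDAC8) of the annotated exon bases lie outside the MANE Select transcript. The order between genes and the shares below can therefore depend on the length used, and no other length was tried. With CPI-455 HDAC1 was still first, at 102 ± 0.658 CPM per kb (SD, n = 2), and HDAC6 stood second at 27.1 ± 3.30. HDAC8, HDAC5 and HDAC7 were not separated from their neighbours there, with 8.54, 8.11 and 7.57 CPM per kb, and neither were HDAC4 and HDAC11, at 1.40 and 0.956. The share of HDAC6 in the summed per-length level of the 10 members was 3.93% and 3.46% in the vehicle libraries and 16.0% and 13.6% in the CPI-455 libraries. The share of HDAC1 was 55.4% and 55.5% under vehicle and 55.3% and 56.7% under CPI-455. Summed over the 10 members, the level was 143 and 141 CPM per kb under vehicle and 184 and 182 under CPI-455.

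Among the class I enzymes, HDAC1 and HDAC8 were higher under CPI-455 and HDAC2 and HDAC3 were lower, each by less than 2-fold. HDAC1 is found on chromosome 1 (GRCh38, forward strand) from 32292086 to 32333635. The fragments counted were 6624 and 6784 under vehicle and 3596 and 2058 under CPI-455, which corresponded to 314 and 311 against 404 and 408 normalized CPM. Both CPI-455 libraries were above both vehicle libraries. The log2 fold change of HDAC1 was 0.38 (standard error, SE, 0.10; FDR = 0.00953). Its paralog HDAC2, on the reverse strand of chromosome 6 from 113933028 to 114011308, had 222 and 234 normalized CPM under vehicle and 142 and 169 under CPI-455. Here both CPI-455 libraries were the lower ones, with a log2 fold change of -0.56 (SE 0.12, FDR = 0.00335). The per-length ratio of HDAC1 to HDAC2 was thus 5.50 and 5.18 in the vehicle libraries and 11.2 and 9.41 in the CPI-455 libraries. Fragments on the HDAC1 pseudogenes HDAC1P1 and HDAC1P2 were 0 in every library, and fragments matching several places were not counted.

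HDAC3, on chromosome 5 from 141620876 to 141636870, had 104 and 99.6 normalized CPM under vehicle and 72.1 and 81.9 under CPI-455. The groups did not overlap, and the log2 fold change was -0.41 (SE 0.12, FDR = 0.0173). HDAC8 is on the X chromosome from 72329516 to 72573103, and its normalized CPM rose from 31.4 and 32.6 under vehicle to 48.7 and 43.2 under CPI-455. This was a log2 fold change of 0.53 (SE 0.15, FDR = 0.0120). These class I changes depended on the processing. Of the 17 other fits that test for a change of any size, the FDR was below 0.05 in 13 for HDAC1, 15 for HDAC2 and 11 each for HDAC3 and HDAC8. When a smooth dependence on exon GC content and length was taken out of each library, HDAC2 and HDAC3 had log2 fold changes of -0.13 (FDR = 0.270) and -0.17 (FDR = 0.212), and HDAC8 had one of 1.00 (FDR = 2.196e-04) and was called. HDAC3 also missed it with upper-quartile scaling (FDR = 0.133) and with thinned libraries (FDR = 0.132). Without scaling beyond library totals, the FDR was 0.122 for HDAC1 and 0.0732 for HDAC8, and with no filter it was 0.131 and 0.0970. Without vehicle replicate 1 the FDR was 0.123 for HDAC1, 0.161 for HDAC3 and 0.194 for HDAC8, and without vehicle replicate 2 it was 0.145, 0.0979 and 0.148.

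**Figure D2:**
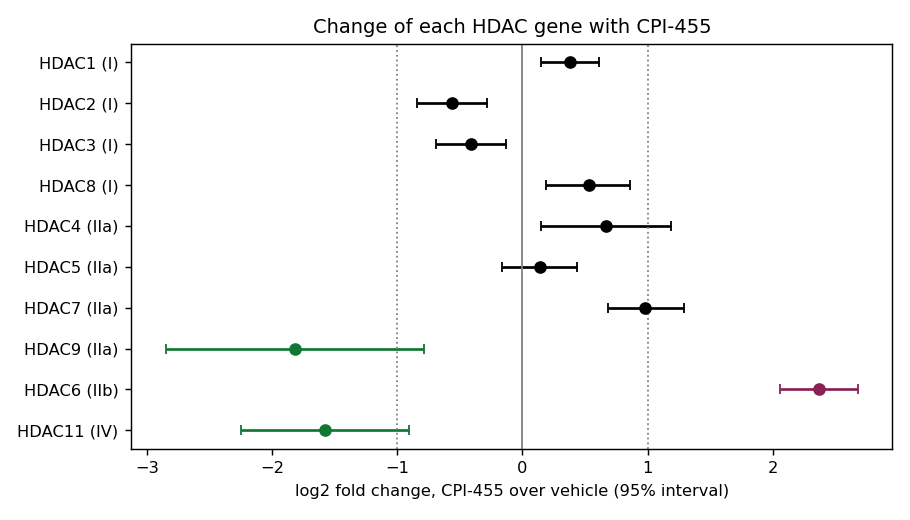
Log2 fold change of each member (x axis, CPI-455 over vehicle) with its 95% interval, by class. Dotted lines mark 2-fold, purple a called rise and green a called fall. HDAC6 at 2.37 lies to the right of the 2-fold line, and HDAC9 and HDAC11 at -1.82 and -1.58 lie to the left.

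The class IIa enzymes did not change together, with 1 of the 4 called lower and none called higher. HDAC7, on the reverse strand of chromosome 12 from 47782722 to 47833132, is known for its part in vascular and lymphoid development. The fragments counted were 806 and 829 under vehicle and 710 and 355 under CPI-455, or 38.2 and 38.0 against 79.8 and 70.4 normalized CPM. The CPI-455 libraries were both the higher ones, and the log2 fold change was 0.98 (SE 0.14, 95% interval 0.68 to 1.29, FDR = 2.020e-04). HDAC7 therefore passed the FDR but stood just under 2-fold. It was called in 8 of the 18 other settings, among them the one without CPI-455 replicate 2 (log2 fold change 1.03).

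HDAC4, a regulator of chondrocyte and muscle genes on chromosome 2 from 239048168 to 239401654, was low in every library. It had 10.8 and 12.5 normalized CPM under vehicle and 16.3 and 21.2 under CPI-455. On 107 to 273 fragments per library, its log2 fold change was 0.67 (SE 0.23, FDR = 0.0286). The FDR of HDAC4 was below 0.05 in 12 of those 17 fits. It missed this with library totals only, where the log2 fold change was 0.48 (FDR = 0.0938), with no filter (FDR = 0.111), with DESeq2 (FDR = 0.0582), and without vehicle replicate 1 (FDR = 0.273) or vehicle replicate 2 (FDR = 0.131). HDAC5, on chromosome 17 from 44076746 to 44123702, is a close relative of HDAC4 that represses MEF2 targets. Its normalized CPM was 56.0 and 56.2 under vehicle and 65.1 and 58.5 under CPI-455. It was the one member without an FDR below 0.05, with a log2 fold change of 0.14 (95% interval -0.16 to 0.44, FDR = 0.372), so a change of 2-fold lay outside its interval. The sign of HDAC5 was negative with library totals only and with no filter.

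HDAC9, which limits muscle gene expression through MEF2, had the lowest level of the family and its most negative log2 fold change. It lies on the forward strand of chromosome 7 from 18086949 to 19002416. The fragments counted were 130 and 107 under vehicle and 10 and 11 under CPI-455, or 6.16 and 4.90 against 1.12 and 2.18 normalized CPM. The vehicle libraries were both above the CPI-455 ones, and the mean under CPI-455 was 29.9% of the vehicle mean. The log2 fold change was -1.82 (SE 0.46, 95% interval -2.85 to -0.79, FDR = 0.00680), the widest interval of the family. The interval of HDAC11, -2.25 to -0.91, lies within it, so the 2 falls cannot be ranked. About 10 fragments per library stand behind the CPI-455 values, so the size of the fall is loosely bounded. Without vehicle replicate 1 the log2 fold change was -1.62 and HDAC9 was no longer called (FDR = 0.137).

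HDAC6 was the member with the largest change and the one called higher. It lies on the forward strand of the X chromosome from 48801377 to 48824982. The deacetylase it encodes acts on tubulin, cortactin and the HSP90 chaperones, and carries ubiquitinated proteins to the aggresome. The fragments counted went up from 1236 and 1111 under vehicle to 2725 and 1300 under CPI-455, although the CPI-455 libraries were the shallower ones. In normalized CPM the vehicle libraries had 58.5 and 50.9 and the CPI-455 libraries 306 and 258, so that the lowest treated library was far above the highest vehicle one. HDAC6 was 5.17-fold higher under CPI-455, a log2 fold change of 2.37 (SE 0.14, 95% interval 2.06 to 2.68, FDR = 1.412e-06). Of all genes tested, 92.0% had a lower log2 fold change. HDAC6 was called in all 18 other settings, with values from 2.13 to 2.54. It shares no exon bases with another annotated gene.

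HDAC11 was the other member called lower. It lies on the forward strand of chromosome 3 from 13479724 to 13506424. The fragments counted were 338 and 340 under vehicle and 58 and 18 under CPI-455, or 16.0 and 15.6 against 6.52 and 3.57 normalized CPM. Both CPI-455 libraries were below both vehicle libraries, but they differed from each other more than the vehicle libraries did. The log2 fold change was -1.58 (SE 0.30, 95% interval -2.25 to -0.91, FDR = 0.00133), and HDAC11 was called in all 18 other settings. Of its exon bases 6.25% are shared with the antisense gene HDAC11-AS1, which had 1 fragment in all 4 libraries together.

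**Figure D3:**
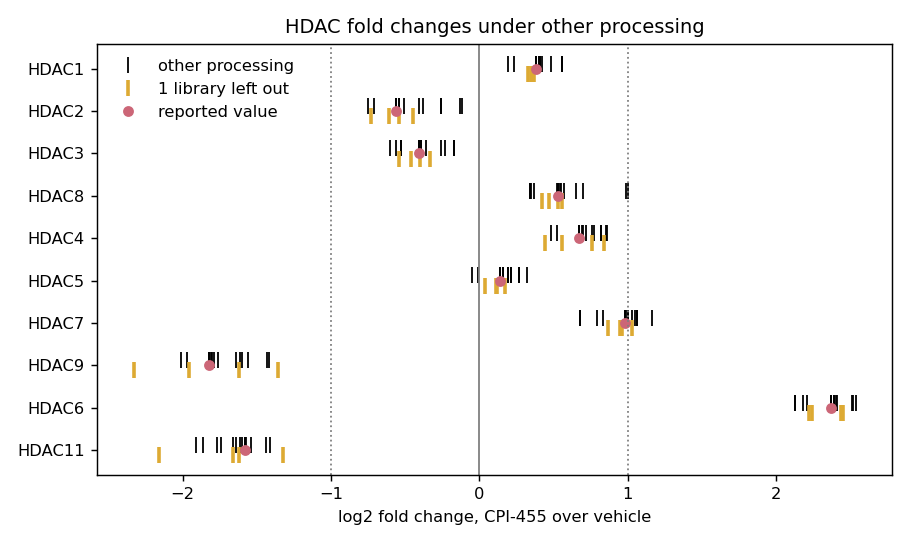
Log2 fold change of each member (x axis, CPI-455 over vehicle) as reported (red points), under each other processing (black ticks) and with each library left out (yellow ticks). Dotted lines mark 2-fold. HDAC6 stays between 2.13 and 2.54, while HDAC7 and HDAC8 reach the 2-fold line in some settings.

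Each deposited count covers all annotated exons of a gene, including those of transcripts with retained introns, and cannot be split by exon. For HDAC6 the annotated exons span 10412 bases in 21 blocks, while its MANE Select transcript has 4118 bases in 29 exons, so 60.4% of the counted bases lie outside that transcript. The share was 67.4% for HDAC8, 58.3% for HDAC3, 57.6% for HDAC7 and between 30.2% and 46.6% for the other 6 members. This share moved with the fold change over the 13666 tested genes that have a MANE Select transcript. With these genes in 5 equal bins, the median log2 fold change was -0.77 in the bin with the smallest share, with 8.34% called higher. It was 0.39 in the bin with the largest share, with 27.0% called higher. HDAC6, HDAC7, HDAC8 and HDAC3 belong to this last bin. When a dependence on this share, GC content and exon length was taken out of each library, an alternative chosen after seeing the data, HDAC6 had a log2 fold change of 2.13 (FDR = 2.055e-07) and HDAC7 one of 0.68 (FDR = 7.591e-04). The same setting gave 0.35 for HDAC8 (FDR = 0.0675), -0.53 for HDAC3 and -1.86 for HDAC11. Whether fragments from introns contributed to the HDAC6 count was not tested.

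**Figure D4:**
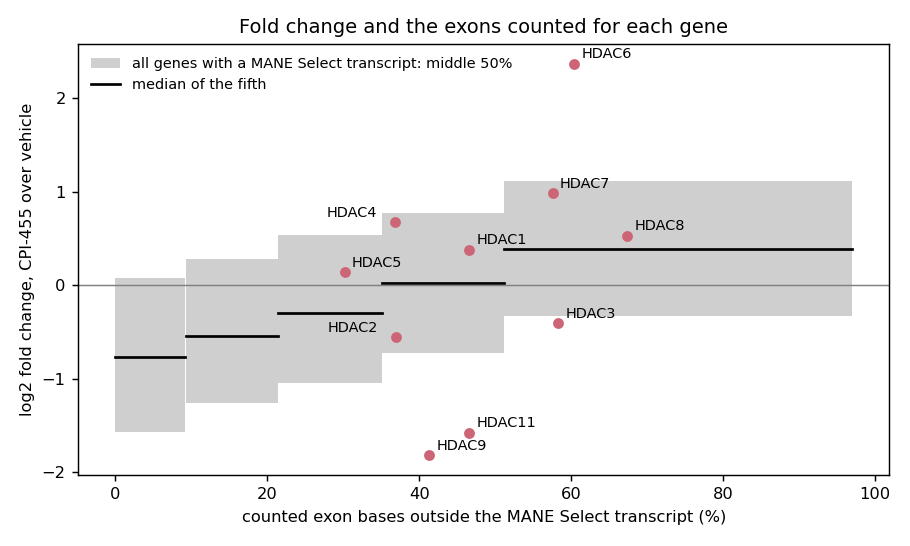
Log2 fold change (y axis) against the percent of counted exon bases outside the MANE Select transcript (x axis). Grey boxes are the interquartile range of the genes in each of 5 bins, black lines their medians and red points the 10 members. The medians go from -0.77 to 0.39, and HDAC6 at 60.4% lies above the box of its bin.

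Strand was not used in counting and fragments that fall on several genes were left out, which bears on the 6 members that share exon bases. HDAC7 shares 11.2% of its exon bases with 3 genes of the other strand and HDAC3 shares 9.20% with one. The partner of HDAC7 with the most counts, SLC48A1, had 378 and 471 fragments under vehicle and 59 and 19 under CPI-455, and shares 32 bases with HDAC7. The fragments of overlapping genes are raw counts here, not scaled for the shallower CPI-455 libraries. HDAC4 shares 101 bases with HDAC4-AS1, which had 28 and 20 fragments under vehicle and 64 and 28 under CPI-455. HDAC2 shares 69 bases with HDAC2-AS2, with 38 and 51 fragments under vehicle and 9 and 2 under CPI-455. HDAC1, HDAC6, HDAC8 and HDAC9 share none.

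The genes that work with the deacetylases were examined as 9 lists with 95 genes, of which 93 were tested. Over all of them 20 were called lower and 12 higher, or 21.5% and 12.9%, beside 21.3% and 21.0% of all genes tested. Of the 17 genes of the SIN3 complex, 5 fell and 1 rose by the definition above, around a median of -0.26 on the log2 scale. SIN3A, its scaffold, fell with a log2 fold change of -1.46 (SE 0.13), from 132 ± 3.07 to 47.7 ± 6.33 normalized CPM (SD, n = 2). The related scaffold SIN3B had a value of 0.77, under 2-fold, and ARID4B rose by 1.32. Of the 12 NuRD genes 2 were called lower and 1 higher, with a median of 0.04. GATAD2A fell (-1.32) and MTA1 rose (1.09), whereas the remodeler CHD4 had -0.91 and MTA2 -0.48. RBBP4, a histone-binding subunit of both complexes, fell with a log2 fold change of -1.14, but was not called in 6 of the 18 other settings, where it reached -0.30.

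For the CoREST complex, which joins HDAC1 and HDAC2 to the demethylase KDM1A, 2 of 10 genes were called in each direction and the median was -0.01. HMG20B rose (1.40), and KDM1A and RCOR1 stayed under 2-fold at 0.55 and -0.48. In the NCoR complex, to which HDAC3 belongs, 2 of 6 genes were called higher and 1 lower. NCOR1, a scaffold that activates HDAC3, rose from 162 ± 1.25 to 532 ± 37.1 normalized CPM (SD, n = 2), a log2 fold change of 1.72 (SE 0.11, FDR = 2.292e-06). GPS2 rose (2.02), with 52.5% of its exon bases shared with other genes, and TBL1XR1 fell (-1.29). None of the 3 tested MiDAC genes was called in either direction, and none had an unadjusted p under 0.05 in edgeR's test. DESeq2 called none of them either, and 1 was called higher with the dependence on the share outside MANE Select taken out.

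Of the 18 tested partners of the class IIa enzymes, 3 were called lower and 1 higher, with a median of -0.60. MEF2A, a transcription factor that these enzymes repress, fell from 182 ± 7.74 to 34.4 ± 2.46 normalized CPM (SD, n = 2), a log2 fold change of -2.41. SIK2, a kinase that keeps class IIa enzymes in the cytoplasm, fell by the most (-2.44), and YWHAG, which encodes a protein that binds them when phosphorylated, had -1.61. ANKRA2 rose (1.06). Of the 11 substrates and partners of HDAC6, 2 were called in each direction, with a median of 0.02. ATAT1, the acetyltransferase that acts on tubulin opposite to HDAC6, rose from 19.8 ± 0.815 to 40.9 ± 0.360 normalized CPM (SD, n = 2), a log2 fold change of 1.04 (SE 0.16, FDR = 3.528e-04). HSP90AA1, a chaperone and HDAC6 substrate, rose as well (2.00), and the tubulin gene TUBA1C fell (-1.15), although near-identical tubulin genes make the level of each uncertain.

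The histone acetyltransferases, which add the groups that deacetylases remove, were the list with the largest share called, with a median of -0.51. Of the 11 genes 5 were called lower and 3 higher, or 45.5% and 27.3%, beside 21.3% and 21.0% of all genes tested. The number called higher was 1 with library totals only, with glmTreat and in both fits that also took out the share outside MANE Select, and 2 with no filter and without either CPI-455 replicate. EP300 and CREBBP, paralogs that act as androgen receptor coactivators, fell with log2 fold changes of -1.72 and -1.57. KAT2B fell from 904 and 986 fragments in the vehicle libraries to 44 in each CPI-455 library, a log2 fold change of -2.75 (SE 0.25). Its paralog KAT2A rose from 99.5 ± 11.6 to 586 ± 77.6 (SD, n = 2), one of 2.56 (SE 0.14), and was called in all 18 other settings as well. Among the 7 sirtuins, the deacetylases that use NAD, SIRT1 was called lower (-1.63) and none was called higher. Of the genes named here, MTA1 was called in 11 of the 18 other settings, TBL1XR1 in 13, ANKRA2 in 14, and ATAT1 and TUBA1C in 12 each. With the dependence on the share outside MANE Select, GC content and exon length taken out, GATAD2A, HMG20B, SIRT1 and YWHAG were not called. The same held for MTA1, TBL1XR1, ATAT1, TUBA1C, RBBP4 and the SIN3 complex gene SAP30L.

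**Figure D5:**
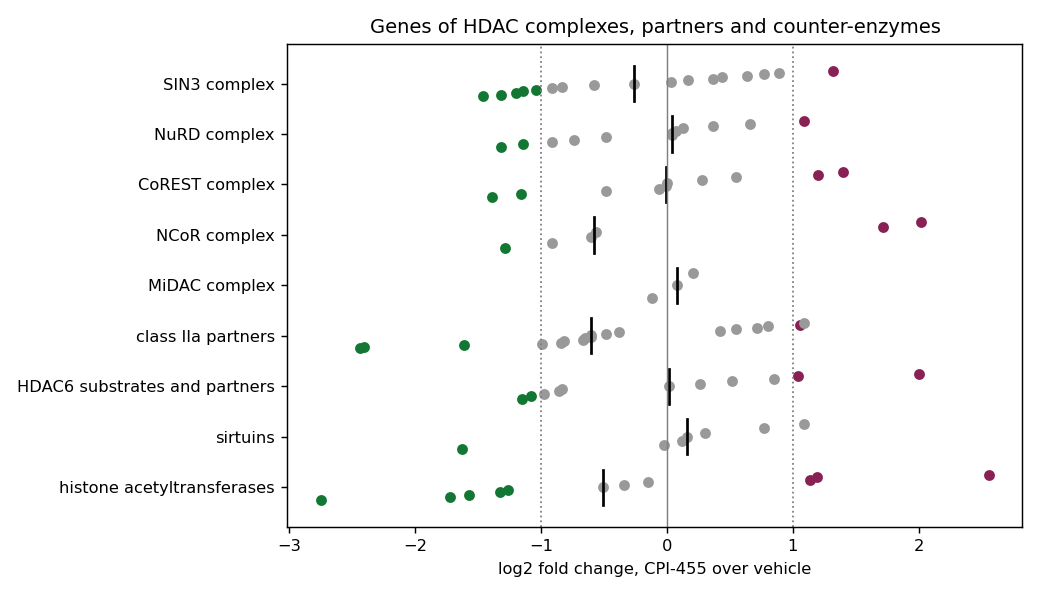
Log2 fold change (x axis, CPI-455 over vehicle) of the tested genes of each list. Points are genes, purple called higher, green called lower and grey not called, and black bars are medians. Each of the larger lists holds genes on both sides of 0, with KAT2A at 2.56 and KAT2B at -2.75 at the ends of the acetyltransferases.

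Of the 93 tested partner genes, those whose centred log2 CPM over the 4 libraries was nearest to HDAC6 were KAT2A (Euclidean distance 0.200) and GPS2 (0.521). For HDAC9 they were TBL1XR1 (0.280) and SAP30L (0.330). The 4 libraries form 2 groups, so genes with like changes between the groups are near by this measure.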

How the data were processed

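The data are RNA-seq of LNCaP cells, 4 libraries in 2 groups. The authors trimmed reads with TrimGalore, used STAR for alignment to GRCh38, and counted fragments with featureCounts v1.5.0-p1 on Ensembl release 83. Deposited were raw counts for each gene, without strand and without fragments matching several places or genes. Symbols were matched by identifier for 56558 of 60675 genes. MANE Select exons came from GENCODE release 44 and promoter windows from RefSeq, both on GRCh38.

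From the counts, edgeR 4.0.16 in R 4.3.3 was used with TMM scaling, filterByExpr (minimum 10 counts) and the quasi-likelihood test without covariates on all 4 libraries. Calls needed an FDR (Benjamini-Hochberg) below 0.05 and at least 2-fold, the thresholds of the study. Standard errors are the log2 fold change over the square root of F. Replicates are labelled as separate samples, and p-values measure only the spread between them.

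Alternatives were RLE, upper-quartile and no scaling, no filter, at least 10 counts in every library, DESeq2 1.42.0, a likelihood-ratio test, glmTreat, a replicate block, a smooth trend (mgcv 1.9.3) on exon length and GC content with and without the block, thinning to 5401588 fragments, and leaving out each library. The trend that also takes in exons outside MANE Select was added after seeing the data. Leaving out a library assumes that the lone sample varies like the other group.

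The members and gene lists were chosen with earlier results of these data known. Named are all 10 members, from each partner list the called gene that moved most up and most down (mean of 10 counts or more), fixed scaffold and catalytic genes, and the 2 partner genes nearest to the members with the largest called changes. RBBP4, MEF2A, YWHAG and the antisense and overlapping genes were named after their values were seen. Some genes of the lists are not reported here.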

Additional observations from a re-analysis of the deposited data

How the results depend on the processing

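Of 180 member values in 18 other settings, 167 kept their direction and their side of the thresholds, 9 passed the thresholds only in the other setting, 2 lost the call and 2 changed sign. The changes of sign were those of HDAC5, which was -0.05 with library totals only and -0.01 with no filter. The number of members called lower was 2 in 16 settings. It was 1 with glmTreat, where HDAC9 was not called (FDR = 0.0620), and 1 to 2 with each library left out, the lower number without vehicle replicate 1. The number called higher was 1 in the fit reported and 2 with RLE scaling, upper-quartile scaling, at least 10 counts in every library, DESeq2, thinned libraries, and the trend on GC content and exon length with the replicate block. It was 3 with that trend without the block, where HDAC7 and HDAC8 joined HDAC6, and 1 to 2 with each library left out, the higher number without CPI-455 replicate 2. The cause was not tested. Scaling moved the median of all genes by 0.18 with upper quartiles and by -0.19 with library totals only, as large as the change of HDAC5.

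The replicate block alone left 2 members called lower and 1 higher and changed no member's call. Deviations of same-numbered libraries had a correlation of 0.0496 across genes, so the numbers do not show a pairing.

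Of the 324 counts of called genes per partner list, 245 stayed within 1.5 times the count reported. The widest ranges were those of the SIN3 genes called lower, from 2 with glmTreat to 7 with library totals only, and of the HDAC6 partners called lower, from 0 with upper quartiles or glmTreat to 5 with library totals only. Over all genes, 3756 were called lower and 3698 higher, and 2350 and 2455 with glmTreat. In leaving-out fits the log2 fold change of HDAC11 lay between -2.16 and -1.32 and that of HDAC9 between -2.33 and -1.36. Depth limited HDAC9 the most, at 10 and 11 counts under CPI-455. Intervals cover only the spread between these libraries.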
